A study of Mus musculus with 20 samples.

Results

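The genes described here encode enzymes that make fatty acids from 2-carbon units and then lengthen and desaturate them: *Acly*, *Acss2*, *Me1*, *Acaca*, *Fasn*, *Elovl6*, *Scd1*, *Scd2*, *Fads1* and *Fads2*. They were taken as every array probe named for 1 of these 10 genes. This gave 29 probes, 28 of them under the same name in both versions of the array design, out of 25034 genes named on the array. Where a gene had several probes, the brightest on average stood for it, and this probe was well above background on all 20 arrays for all 10 genes.

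RNA from small pieces of mouse intestine was measured on 20 single-channel arrays, 1 per mouse, in 4 groups. Cre control mice (n = 6) carried VillinCreER, a tamoxifen-inducible Cre recombinase driven in the gut epithelium, and BRAFV600E mice (n = 6) carried in addition 1 Braf V600E-LSL allele, whose mutant kinase is expressed once Cre has removed the stop cassette. Both groups were C57BL6/j mice aged 8 to 12 weeks that received tamoxifen on 3 days, and tissue was taken 3 days later. MEKi mice (n = 4) received the MEK inhibitor PD184352 and Vehicle mice (n = 4) its carrier, on 3 days after 2 days of tamoxifen. For these 8 mice the genotype is missing from the labels and is given as mutant in the study's legends, and a treatment text repeated on all 20 labels describes a statin in female mice and matches none of these groups. The first pair of groups asks what the mutant kinase changes within days, and the second which transcripts respond when MEK, the kinase directly below BRAF, is inhibited. Since they lay on separate slides, no enzyme gene was compared across the 2 experiments, and marker averages are set side by side over all 20 arrays only as a check of the tissue.

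As background, ACLY and ACSS2 make cytosolic acetyl-CoA from citrate and from acetate, ACACA carboxylates it to malonyl-CoA, and FASN builds palmitate from these units with NADPH, part of which comes from malic enzyme, ME1. ELOVL6 lengthens palmitate, the stearoyl-CoA desaturases SCD1 and SCD2 place the first double bond in saturated chains, and FADS1 and FADS2 are the front-end desaturases that act on dietary polyunsaturated fatty acids. Many of these genes are known targets of the SREBP transcription factors, and in the gut the enterocyte also takes up and re-esterifies dietary fat. Adipocytes, which surround the intestine in the mesentery, express several of the same enzymes strongly, *Scd1* among them. In bulk tissue, fewer cells of a type and less RNA per cell cannot be told apart.

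Signal stood well above background on 36032 to 45518 spots of an array (60.8% to 76.8%), 0 spots were saturated, and arrays of 1 group correlated between 0.945 and 0.992 across probes, which are not independent replicates. Cre control arrays and BRAFV600E replicates 1 and 2 shared slide 1, BRAFV600E replicates 3 to 6 lay alone on slide 2, where the reported slope of the spike-in controls was 0 on all 4 arrays, and on slide 3 the MEKi arrays filled row 1 and the Vehicle arrays row 2, so that row and group cannot be told apart there. The epithelial markers fixed for this tissue, *Vil1*, *Epcam* and 5 others, were well above background on all 20 arrays, as were all 10 enterocyte markers. Some arrays stood apart. The 7 exocrine pancreas markers averaged 6.79 (log2, relative to the array's 75th percentile) on Vehicle replicate 2 and between -4.10 and -2.65 on the other 19 arrays. The 10 enterocyte markers averaged 5.31 on BRAFV600E replicate 2 and between 6.31 and 6.90 elsewhere. Y-linked signal was high on 3 of 6 Cre control, 4 of 6 BRAFV600E, 4 of 4 MEKi and 2 of 4 Vehicle arrays, so the sexes were not balanced between groups, although the study's methods describe even numbers in the first experiment.

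The sequence just before the transcription start is shown for 3 genes that rose in BRAFV600E tissue and for *Fasn*, the central synthase, which did not pass the test. The promoter table (RefSeq, GRCm38.p6) held 8 promoters for 7 of the 10 genes, 2 of them for *Me1*. *Scd1*, *Scd2* and *Fads1* had no entry. Each run below is the 250 bases before the start, 5′ to 3′ on the strand of the gene, and capitals mark matches, on either strand, to CCAAT (the CCAAT box), GGGCGG (the GC box, which reads CCGCCC on the other strand) or CCGGAAG (an ETS site).
Acss2, chr2:155517793-155518042, plus strand: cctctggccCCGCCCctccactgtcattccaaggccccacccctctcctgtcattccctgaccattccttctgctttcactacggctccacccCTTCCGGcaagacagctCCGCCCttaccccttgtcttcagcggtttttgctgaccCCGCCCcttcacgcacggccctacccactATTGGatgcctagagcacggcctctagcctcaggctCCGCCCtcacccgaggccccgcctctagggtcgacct
Fads2, chr19:10101504-10101753, minus strand: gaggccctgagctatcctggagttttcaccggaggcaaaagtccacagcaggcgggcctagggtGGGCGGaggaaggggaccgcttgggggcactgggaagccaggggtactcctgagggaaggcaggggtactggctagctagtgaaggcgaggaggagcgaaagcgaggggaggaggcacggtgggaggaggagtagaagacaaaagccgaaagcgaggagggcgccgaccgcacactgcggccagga
Me1, chr9:86695915-86696164, minus strand: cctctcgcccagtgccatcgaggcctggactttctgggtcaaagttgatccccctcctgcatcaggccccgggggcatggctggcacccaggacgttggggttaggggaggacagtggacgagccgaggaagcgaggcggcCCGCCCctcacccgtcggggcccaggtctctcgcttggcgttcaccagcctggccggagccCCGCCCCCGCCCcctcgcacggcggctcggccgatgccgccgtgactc
Fasn, chr11:120824548-120824797, minus strand: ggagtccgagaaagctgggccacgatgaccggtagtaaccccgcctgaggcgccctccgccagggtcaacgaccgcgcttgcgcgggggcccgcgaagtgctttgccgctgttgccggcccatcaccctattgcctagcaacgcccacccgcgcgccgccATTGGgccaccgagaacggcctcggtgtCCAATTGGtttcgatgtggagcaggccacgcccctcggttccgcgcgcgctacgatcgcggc
Over the whole window of the table, which adds 50 bases after the start, the *Acss2* promoter held 5 GC boxes, 1 CCAAT box and 1 ETS site, the *Me1* promoter shown 4 GC boxes, the *Fads2* promoter 1 GC box and the *Fasn* promoter 3 CCAAT boxes, a pair of which overlap. In the 8 promoters of the group, CCAAT was present in 4 and GGGCGG in 4, beside 37.4% and 35.7% of all 32851 promoters in the table. The core of the sterol regulatory element, TCACNCCAC, and the E-box CACGTG were in 0 of the 8, beside 1.24% and 7.15% of all promoters, and CCGGAAG was in 1, beside 8.86%. A match is a description of the letters, and a missing match says only that they are not in this window.

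In BRAFV600E tissue, 5 of the 10 genes rose relative to Cre control and 0 fell (limma, two-sided, Benjamini-Hochberg adjusted p under 0.05). *Scd2* rose most, 6.70-fold, followed by *Me1* (3.50-fold), *Fads2* (2.03-fold), *Fads1* (1.78-fold) and *Acss2* (1.57-fold). The remaining 5, *Acly*, *Acaca*, *Fasn*, *Elovl6* and *Scd1*, did not pass. Of all 19037 genes tested, 12.5% were called, 1179 higher (6.19%) and 1193 lower (6.27%). That split was 1592 higher and 3054 lower with another background correction (normexp), where the median log2 fold change over all genes was -0.13, and 9161 higher and 176 lower without scaling between arrays, where it was 0.79. The log2 fold change was above 0 for 9 of the 10 genes, beside 48.4% of all genes, and its median was 0.74 over the 10 and -0.02 over all genes tested. Before adjustment, 6 of the 10 genes had a p under 0.05, all higher, beside 30.1% of all genes. In 3 of the 10 genes the groups did not overlap, each higher in BRAFV600E, beside 7.36% of all genes (4.19% higher and 3.17% lower).

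**Figure D1:**
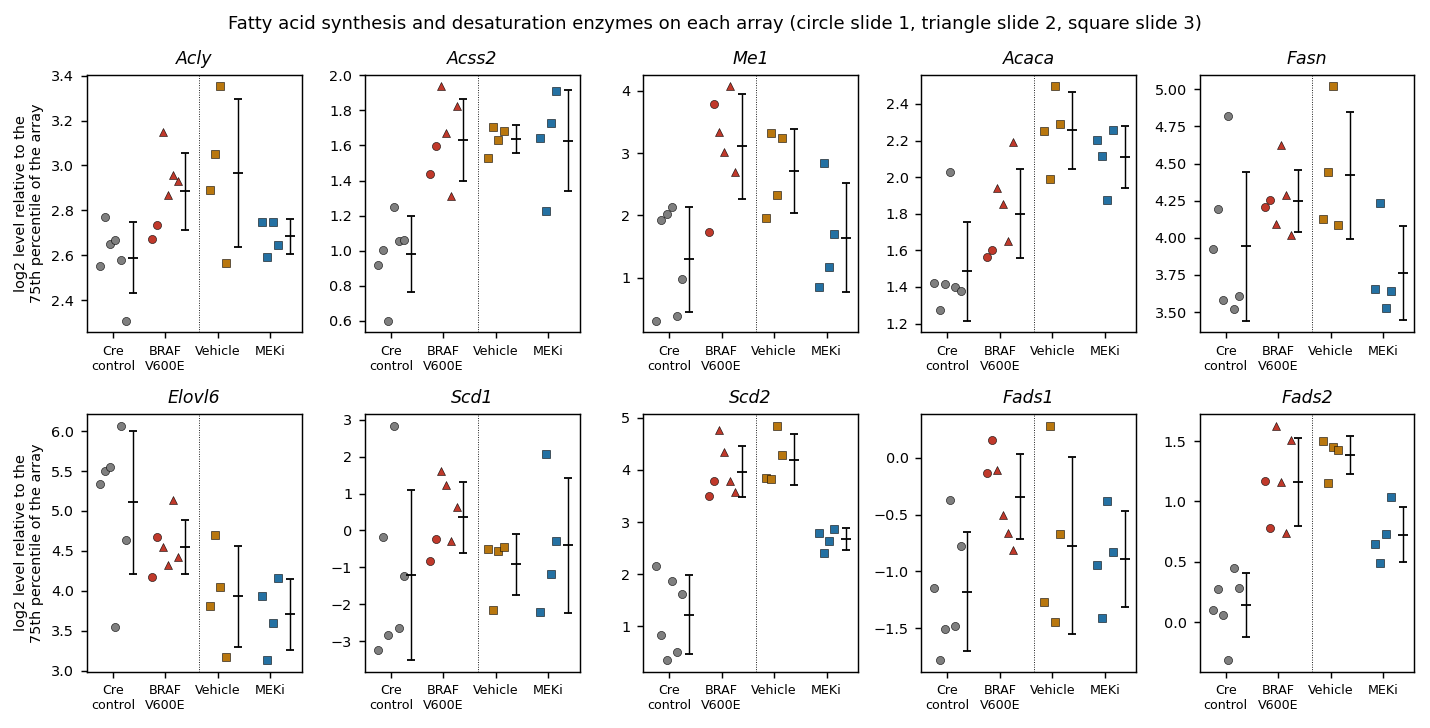
Level of each enzyme gene on each array (vertical axis, log2 processed signal minus the array's 75th percentile; each panel has its own range) by group (horizontal axis). Points are arrays, their shape gives the slide, and the bar beside each group is the mean and SD. For Scd2, all 6 BRAFV600E arrays lie above all 6 Cre control arrays and all 4 MEKi arrays below all 4 Vehicle arrays. Scd1 spreads from -3.24 to 2.84 within the Cre control group alone.

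The desaturases held the largest change. *Scd2*, a stearoyl-CoA desaturase known from brain and other tissues outside the liver, lay between 0.35 and 2.16 (median 1.23) on the 6 Cre control arrays and between 3.51 and 4.77 (median 3.79) on the 6 BRAFV600E arrays. Its lowest BRAFV600E array was above its highest Cre control array. Its log2 fold change was 2.74 (SE 0.34, adjusted p = 0.000508, limma), a 6.70-fold difference with a 95% confidence interval of 4.02 to 11.2. The probe lies on mm9 at chr19:44381024-44381083 and is the sole *Scd2* probe on the array.

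*Fads2*, the delta-6 desaturase that starts the conversion of linoleic and alpha-linolenic acid, ran from -0.31 to 0.45 (median 0.19) in Cre control and from 0.74 to 1.63 (median 1.16) in BRAFV600E, again without overlap. It rose by a log2 fold change of 1.02 (SE 0.19, adjusted p = 0.00526, limma). *Fads1*, the delta-5 desaturase of the same pathway and its neighbour on chromosome 19, ran from -1.78 to -0.37 (median -1.31) and from -0.82 to 0.16 (median -0.32). These ranges overlapped, since Cre control replicate 4 (-0.37) lay above 3 of the 6 BRAFV600E arrays. Its log2 fold change of 0.83 (SE 0.25, adjusted p = 0.0471, limma) was close to the threshold, and it was called in 3 of the 12 fits that left out 1 array, with an adjusted p between 0.0144 and 0.0985.

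*Scd1*, the desaturase best known from liver and fat, had the widest range of the group over these 12 arrays. The 6 Cre control arrays ran from -3.24 to 2.84 (median -1.93), a range that spans the whole of the BRAFV600E arrays (-0.82 to 1.62, median 0.20). The log2 fold change was 1.57 (SE 0.91, adjusted p = 0.265, limma). Cre control replicate 4 held the top value, and without it the log2 fold change was 2.38 (adjusted p = 0.0224). Among the 10 adipocyte markers, *Adipoq* (adiponectin), *Cfd* (adipsin) and *Retn* (resistin) were also highest on Cre control replicate 4, at 1.20, 5.27 and 1.72, as were *Plin1*, *Plin4* and *Fabp4*. *Lipe* was highest on Cre control replicate 3, and *Cidec*, *Pck1* and *Lep* on BRAFV600E replicates 5, 4 and 6. BRAFV600E replicate 4 had *Scd1* at 1.24 and *Adipoq* at -7.24. Of the 10 markers, 7 were lower in BRAFV600E, where 48.4% of all genes were above 0, and 1 of them, *Plin1*, passed the test. *Plin1* was dim, at -5.53 to -3.49. The lowest signal well above background was -5.76 to -4.43 on these arrays, and *Plin1* lay below it on BRAFV600E replicates 2 and 5. The 10 adipocyte markers averaged -0.70 to 1.71 over the Cre control arrays and -1.40 to 1.08 over the BRAFV600E arrays. Of the 10, 7 were well above background on all 20 arrays. On BRAFV600E replicates 1 and 4, *Cfd* was -7.90 and -7.77 and *Adipoq* -6.76 and -7.24. The lowest signal well above background there was -5.61 and -5.50, so the average rests partly on signal at background. With that average as a covariate, an alternative added after the data had been seen, *Scd1* had a log2 fold change of 2.76 (SE 0.76, adjusted p = 0.0478), while *Scd2* (2.83), *Fads2* (1.09), *Me1* (2.23) and *Acss2* (0.76) had adjusted p between 0.00278 and 0.0165 and *Fads1* (0.84) one of 0.0995.

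**Figure D2:**
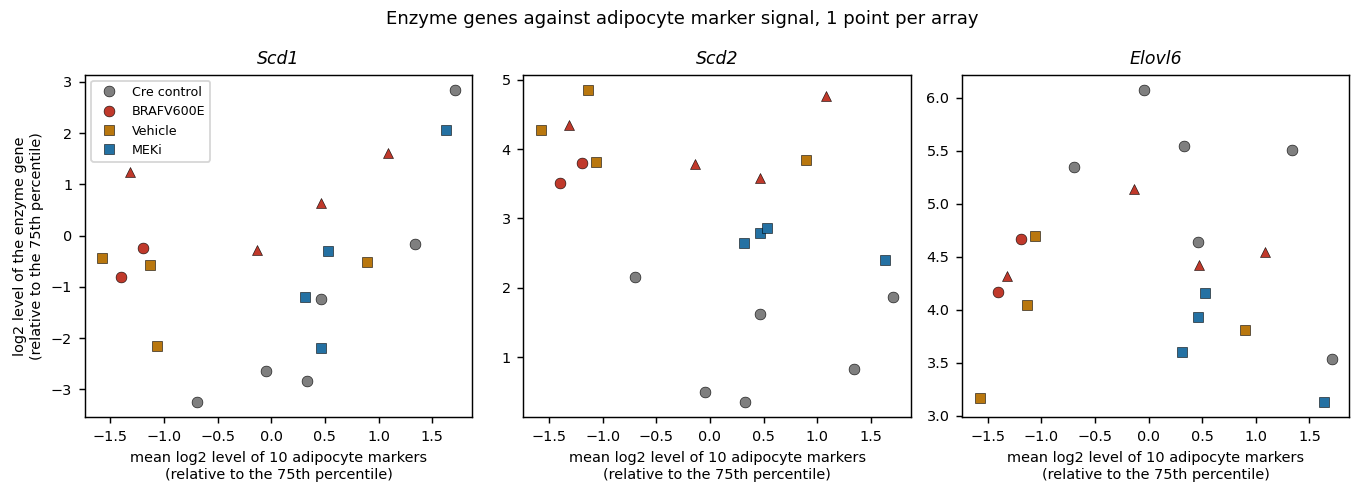
Level of Scd1, Scd2 and Elovl6 on each array (vertical axes, log2 relative to the 75th percentile) against the mean log2 level of the 10 adipocyte markers (horizontal axis). Points are arrays, coloured by group, with circles for slide 1, triangles for slide 2 and squares for slide 3. On some arrays the marker mean includes markers below the lowest signal well above background. In each experiment the highest Scd1 value is on the array with the highest marker mean: 2.84 on Cre control replicate 4 (marker mean 1.71, Elovl6 3.54) in the first, and 2.06 on MEKi replicate 2 (marker mean 1.63, Elovl6 3.13) in the second. Not all arrays follow this order: Scd1 is 1.24 on BRAFV600E replicate 4 (marker mean -1.32). It is -0.43 on Vehicle replicate 4 (marker mean -1.57) and -0.51 on Vehicle replicate 1 (marker mean 0.89).

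Among the enzymes that supply the synthase, *Acss2* and *Me1* rose and *Acly* did not pass. *Acss2* ran from 0.60 to 1.25 (median 1.03) in Cre control and from 1.31 to 1.94 (median 1.63) in BRAFV600E, without overlap. It rose by a log2 fold change of 0.65 (SE 0.15, adjusted p = 0.0151, limma). *Me1* ran from 0.32 to 2.13 (median 1.46) and from 1.73 to 4.07 (median 3.18). Here 5 of the 6 BRAFV600E arrays were above every Cre control array and the sixth, replicate 1 at 1.73, was within their range. Its log2 fold change was 1.81 (SE 0.44, adjusted p = 0.0205, limma). *Acly*, the citrate-cleaving enzyme, ran from 2.31 to 2.77 (median 2.62) and from 2.67 to 3.15 (median 2.90). All 6 BRAFV600E arrays were above the Cre control mean, but the log2 fold change of 0.30 (SE 0.12, 95% confidence interval 0.03 to 0.56) had an adjusted p of 0.126.

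The core of the pathway showed smaller values. *Acaca*, the rate-limiting carboxylase, ran from 1.27 to 2.03 in Cre control and from 1.56 to 2.19 in BRAFV600E, with a log2 fold change of 0.31 (SE 0.16, adjusted p = 0.203, limma). *Fasn* ran from 3.52 to 4.82 and from 4.02 to 4.62, with a log2 fold change of 0.31 (SE 0.22, adjusted p = 0.367, limma). The 95% confidence intervals, -0.03 to 0.66 for *Acaca* and -0.16 to 0.77 for *Fasn*, reach well above 0. *Elovl6* was the sole gene of the group with a negative value: it ran from 3.54 to 6.07 in Cre control and from 4.17 to 5.14 in BRAFV600E, with a log2 fold change of -0.56 (SE 0.36, adjusted p = 0.314, limma), which was 0.25 without scaling between arrays, where the median over all genes was 0.79. Without Cre control replicate 4, again the array at the edge, *Elovl6* fell by 0.88 (adjusted p = 0.0335, limma).

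**Figure D3:**
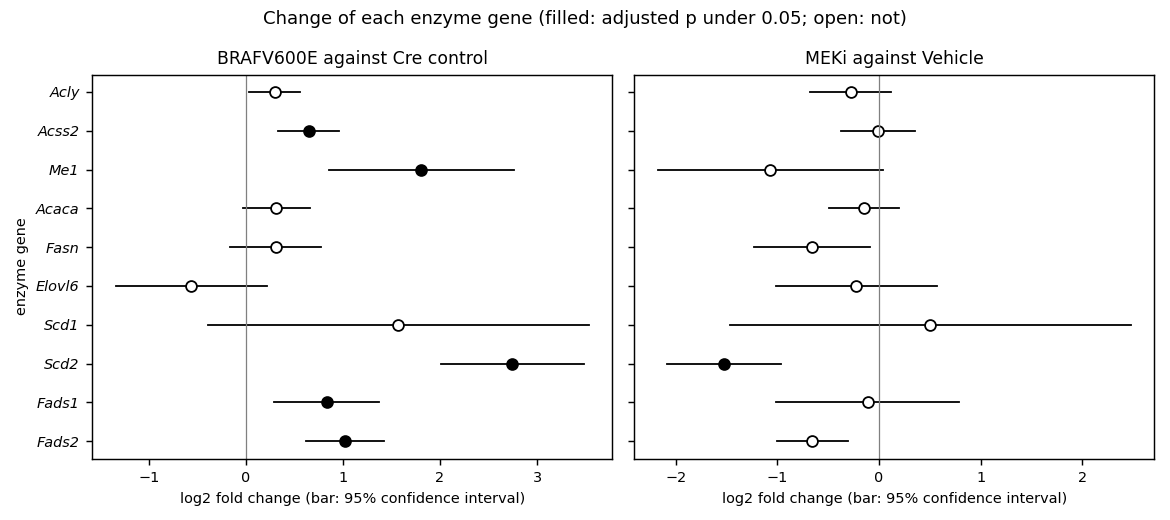
Log2 fold change of each enzyme gene (horizontal axis) with its 95% confidence interval, for BRAFV600E against Cre control on the left and MEKi against Vehicle on the right. Filled points have an adjusted p under 0.05: Scd2, Me1, Fads2, Fads1 and Acss2 on the left, all above 0, and Scd2 alone on the right, at -1.52.

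The slide bears on this comparison, because 4 of the 6 BRAFV600E arrays lay on a slide without controls. With slide as a block, or on slide 1 alone, fewer of all genes were called than the 2372 (12.5%) of the main fit. Those counts are given with the processing alternatives below. Of the 10 enzyme genes, 1 was called in each of these fits, *Scd2*. On slide 1 its 2 BRAFV600E arrays stood at 3.51 and 3.79 while Cre control reached 2.16 at most, which gave a log2 fold change of 2.43 (adjusted p = 0.0120 with the block and 0.0383 on slide 1 alone, limma). *Fads2* (0.83), *Fads1* (1.19), *Acss2* (0.54) and *Me1* (1.46) kept their direction there with adjusted p between 0.0514 and 0.173 under the block and between 0.0931 and 0.256 on slide 1 alone. The part of the slide in these changes was not tested further.

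Inhibition of MEK moved 1 of the 10 genes past the threshold. *Scd2* fell in MEKi relative to Vehicle, 2.87-fold, and 0 genes rose. Of all 19230 genes tested, 1.98% were called, 1.09% higher and 0.884% lower. The log2 fold change was above 0 for 1 of the 10 genes, *Scd1*, beside 54.6% of all genes, and its median was -0.25 over the 10 and 0.04 over all genes tested. In 2 of the 10 genes the groups did not overlap, each lower in MEKi, beside 12.2% of all genes (6.44% higher and 5.76% lower). Before adjustment, 3 of the 10 genes had a p under 0.05, *Scd2*, *Fads2* and *Fasn*, beside 16.4% of all genes.

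*Scd2* stood at 3.84, 3.82, 4.85 and 4.28 on the Vehicle arrays and at 2.79, 2.40, 2.64 and 2.87 on the MEKi arrays. Every MEKi array was below every Vehicle array. The log2 fold change was -1.52 (SE 0.24, adjusted p = 0.0256, limma), with a 95% confidence interval of -2.09 to -0.96. The call was lost without MEKi replicate 1, 3 or 4 or without Vehicle replicate 4, with an adjusted p between 0.0615 and 0.0793 and a log2 fold change between -1.59 and -1.5, and it remained without Vehicle replicate 2, the array with the pancreas signal (-1.65, adjusted p = 0.0264). It was also lost with Y-linked signal as a covariate (-1.66, adjusted p = 0.0950).

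*Fads2* stood at 1.5, 1.15, 1.45 and 1.43 on the Vehicle arrays and at 0.65, 0.49, 0.73 and 1.03 on the MEKi arrays, also without overlap. Its log2 fold change of -0.66 (SE 0.15) had an adjusted p of 0.0773 (limma), and it passed with normexp correction, array weights or a trended variance, at an adjusted p between 0.0302 and 0.0442. *Me1* stood at 1.96, 3.31, 2.32 and 3.25 on the Vehicle arrays and at 0.85, 2.84, 1.17 and 1.70 on the MEKi arrays. MEKi replicate 2 was within the Vehicle range and the other 3 MEKi arrays below it, with a log2 fold change of -1.07 (SE 0.48, adjusted p = 0.322, limma).

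*Fasn* stood at 4.13, 4.44, 5.02 and 4.09 on the Vehicle arrays and at 3.65, 4.23, 3.53 and 3.64 on the MEKi arrays, where replicate 2 was again the highest and the sole one within the Vehicle range (-0.66, SE 0.25, adjusted p = 0.237, limma). *Acly* (-0.28), *Acaca* (-0.14), *Elovl6* (-0.22) and *Fads1* (-0.11) had adjusted p between 0.490 and 0.927. *Acss2*, which rose in BRAFV600E tissue, stood between 1.53 and 1.70 in Vehicle and between 1.23 and 1.91 in MEKi, a log2 fold change of -0.01 with a 95% confidence interval of -0.38 to 0.36.

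*Scd1* stood at -0.51, -2.15, -0.56 and -0.43 on the Vehicle arrays and at -2.20, 2.06, -1.19 and -0.29 on the MEKi arrays. The MEKi arrays spread wider than the Vehicle arrays and reached beyond them at both ends. Its log2 fold change of 0.51 (SE 0.86, adjusted p = 0.839, limma) was -0.31 without MEKi replicate 2, the array with the highest *Adipoq* (0.64), *Cfd* (4.76) and *Retn* (1.35) of the 8. The adipocyte markers *Cidec*, *Lep*, *Lipe* and *Pck1* were highest on Vehicle arrays. Of the 10 adipocyte markers, 7 were higher in MEKi, beside 54.6% of all genes, and 0 passed limma's test. Before adjustment 4 had a p under 0.05, beside 16.4% of all genes. The 10 markers averaged 0.32 to 1.63 over the MEKi arrays and -1.57 to 0.89 over the Vehicle arrays. On Vehicle replicates 3 and 4, *Cfd* was -6.98 and -6.92 and *Adipoq* -6.53 and -7.05. The lowest signal well above background there was -4.66 and -5.79, so here too the average rests partly on signal at background. With that average as a covariate, a fit in which 4 of all genes tested were called, *Scd2* had a log2 fold change of -1.19 (SE 0.31, adjusted p = 0.362).

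The other probes of these genes were also compared. In BRAFV600E against Cre control, 23 of the 29 probes passed the filter on dim signal, 19 were higher and 4 lower, and tested among all probes, of which 9.33% were called, 8 rose and 1 fell. The 3 brightest *Fads2* probes rose by 1.02, 1.32 and 0.96 on the log2 scale (adjusted p between 0.00187 and 0.0124, limma over all probes), both *Me1* probes rose (1.81 and 2.04) and a second *Acss2* probe rose by 0.76 (adjusted p = 0.0396). Another *Acss2* probe, on mm9 at chr2:155349318-155349377, fell by 2.50 (SE 0.62, adjusted p = 0.0284), from a mean of -0.49 in Cre control to -3.00 in BRAFV600E. It is annotated to another transcript record than the probe that stood for the gene, which lies at chr2:155388385-155388444. A further probe annotated to the same record as the falling probe, at chr2:155350949-155351008, had a value of 0.13 (SE 0.34, adjusted p = 0.838, limma over all probes). What the falling probe reports was not analysed here. With the mean over a gene's probes in place of the brightest probe, the log2 fold change of *Acss2* was accordingly -0.15. That of *Fads1* was 0.52 (adjusted p = 0.107, limma), and neither gene was called. The second *Fads1* probe had a value of 0.21 (adjusted p = 0.577), and the probe that stood for *Fads1* had an adjusted p of 0.0568 when tested among all probes (limma). The other *Acaca* probes tested, all dimmer, differed in direction, with values of 1.30, 0.40 and -0.55 (adjusted p between 0.18 and 0.56, limma over all probes). In MEKi against Vehicle, 23 probes were tested, 18 were lower and 5 higher, and the *Scd2* probe fell, beside 0.928% of all probes called.

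Of 22 genes that control lipogenesis, all tested, 7 rose and 1 fell in BRAFV600E tissue, beside 12.5% of all genes called, with a median log2 fold change of 0.28. *Insig1*, which holds the SREBP escort protein in the endoplasmic reticulum and is itself an SREBP target, rose by 2.0 (SE 0.31, adjusted p = 0.00190), *Pparg*, a nuclear receptor of fat storage, by 1.40 (SE 0.31, adjusted p = 0.0133), *Mid1ip1*, which promotes the activity of acetyl-CoA carboxylase, by 0.99, *Prkaa2*, a catalytic subunit of AMP kinase, by 0.86 and *Srebf2* by 0.67 (SE 0.16, adjusted p = 0.0202). *Mbtps2* (0.62) and *Scap* (0.47), which serve the cleavage and transport of SREBP, rose as well. *Mlxipl*, the carbohydrate-responsive factor ChREBP, fell by 0.50 (SE 0.15, adjusted p = 0.0488). *Srebf1*, the SREBP gene tied most closely to fatty acid synthesis, had a log2 fold change of 0.34 (SE 0.22, adjusted p = 0.330), and the LXR genes *Nr1h3* and *Nr1h2* had values of -0.76 and -0.26 (adjusted p = 0.100 and 0.374).

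In MEKi tissue 1 of the 22 regulators fell, *Prkaa2* (-0.97, SE 0.13, adjusted p = 0.0146, limma), and 0 rose. Its 4 MEKi arrays (0.18 to 0.42) were below its 4 Vehicle arrays (1.07 to 1.46). In 8 of the 22 the groups did not overlap, 6 lower and 2 higher in MEKi, beside 12.2% of all genes, and 9 had an unadjusted p under 0.05, beside 16.4%. Of the other regulators that rose in BRAFV600E tissue, *Pparg* (-1.77, SE 0.38, adjusted p = 0.0623), *Insig1* (-1.38, 0.113), *Mid1ip1* (-0.85, 0.116), *Srebf2* (-0.60, 0.161) and *Mbtps2* (-0.45, 0.144) were lower in MEKi without overlap but did not pass, and *Scap* (-0.15, 0.757) overlapped. *Srebf1* (-0.40, adjusted p = 0.427), *Mlxipl* (0.38, 0.244), *Nr1h3* (0.45, 0.476) and *Nr1h2* (0.24, 0.357) did not pass either. Chosen after its value was seen, *Thrsp*, a lipogenic gene of liver and fat, had the value farthest from 0 in this list (2.45, SE 0.61, adjusted p = 0.0958).

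Of 19 genes that supply precursors and NADPH, all tested, 6 rose and 0 fell in BRAFV600E tissue, beside the same 12.5%, with a median log2 fold change of 0.21. *Idh1* (1.15), *Pgd* (0.97) and *G6pdx* (0.77), whose cytosolic enzymes make NADPH as ME1 does, were among them, with adjusted p between 0.00415 and 0.00949. *Aacs*, which makes acetoacetyl-CoA in the cytosol, rose by 1.08, *Acss1*, the mitochondrial acetyl-CoA synthetase, by 0.97 and *Slc25a1*, the mitochondrial citrate carrier, by 0.64. In MEKi 0 of 19 were called and 6 had an unadjusted p under 0.05, beside 1.98% and 16.4% of all genes. *Idh1* (-1.57) and *Aacs* (-1.01) were lower without overlap of the groups, at adjusted p of 0.0556 and 0.0889.

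Of the further elongation and desaturation enzymes, 18 of 20 were tested in BRAFV600E against Cre control and 3 rose, a share near the 12.5% of all genes called, *Fads3* (0.99, SE 0.19, adjusted p = 0.00684), another gene of the FADS cluster, *Hacd1* (0.60) and *Hsd17b12* (0.56), which belong to the elongation cycle, and the median was 0.01. In MEKi 0 of 17 were called, with 3 at an unadjusted p under 0.05, beside 1.98% and 16.4% of all genes. Of 20 glycerolipid synthesis genes, *Acsl3* (2.21, SE 0.18, adjusted p = 2.52e-05), which activates long-chain fatty acids, *Chka* (0.98), the choline kinase of phosphatidylcholine synthesis, and *Lpin2* (0.88), a phosphatidate phosphatase, rose in BRAFV600E tissue and 0 fell, again near the share of all genes. In MEKi, 3 of the 20 fell and 0 rose, beside 1.98% of all genes called: *Acsl3* fell by 1.87, *Lpin2* by 0.94 and *Chka* by 0.87 (adjusted p between 0.0159 and 0.0389, limma). *Acsl3* ran from -1.94 to -0.84 in Cre control and from 0.62 to 1.28 in BRAFV600E, and from 0.39 to 1.34 in Vehicle and from -1.39 to -0.70 in MEKi. The separate mitochondrial pathway of fatty acid synthesis had 0 of 7 genes called in either comparison, with 1 at an unadjusted p under 0.05 in each and medians of -0.08 and -0.04. Over all genes, 30.1% and 16.4% had such a p.

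**Figure D4:**
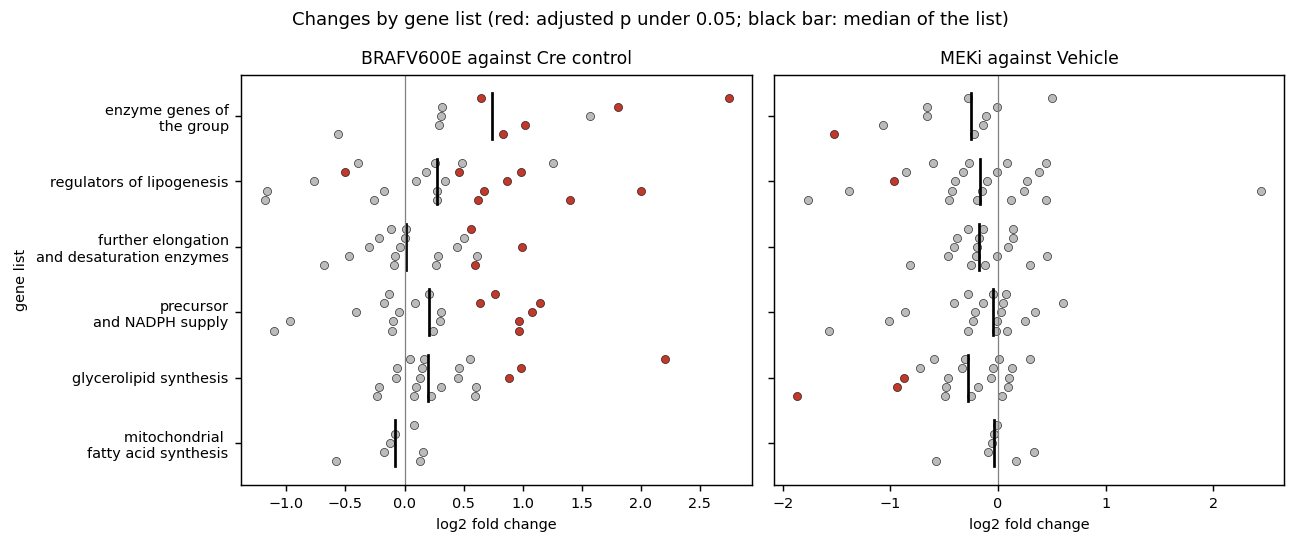
Log2 fold change (horizontal axis) of each tested gene in the enzyme group and 5 related lists (vertical axis), for BRAFV600E against Cre control on the left and MEKi against Vehicle on the right. Each point is a gene, red where the adjusted p was under 0.05, and the black bar is the median of the list. The enzyme group has a median of 0.74 on the left and -0.25 on the right, and the mitochondrial list has no red point in either panel.

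Markers of other cell types moved in BRAFV600E tissue as well. Beside the counts below, 12.5% of all genes were called, 48.4% were above 0 and 30.1% had an unadjusted p under 0.05. Of 5 Paneth cell markers tested, 4 fell, *Itln1* (-2.25), *Mmp7* (-2.10), *Lyz1* (-2.01) and *Defa24* (-0.96), and the markers averaged 3.86 to 6.17 in BRAFV600E against 6.60 to 7.13 in Cre control. Of 6 goblet cell markers 3 fell, *Zg16* (-0.93), *Muc2* (-0.82) and *Tff3* (-0.80), with an average of 5.39 to 6.35 against 6.24 to 6.81. Of 5 stem cell markers *Ascl2* (-1.52) and *Lgr5* (-0.84) fell, of 7 macrophage markers *Lyz2* (-1.75) and *Csf1r* (-0.69), and of 5 T lymphoid markers tested *Lck* (-0.93) and *Cd8a* (-0.83). In each of these lists 1 marker was higher without passing the test, *Smoc2*, *Cd14* and *Cd4*. *Lyz2* had group means close to those of the Paneth marker *Lyz1*, 7.91 and 8.06 in Cre control and 6.16 and 6.05 in BRAFV600E. Whether its probe reports macrophage RNA was not tested. Of 10 enterocyte markers, 7 were lower, with a median log2 fold change of -0.42, but the sole one called was *Alpi*, which rose by 1.84. Named after its value was seen, the enterocyte lactase *Lct* was lower on all 6 BRAFV600E arrays than on any Cre control array, at -2.89 (SE 1.31, adjusted p = 0.159), with its lowest value, -2.23, on BRAFV600E replicate 2 and the other 5 at 5.49 or above. *Krt18* (0.87) and *Cdh1* (0.61) rose among 7 epithelial markers and *Cdk1* (1.15) among 6 proliferation markers. All 6 proliferation markers were higher (median 0.44), each at an unadjusted p under 0.05 (limma). *Des* (0.94) rose among 6 smooth muscle markers and *Cela1* (0.72) among 5 exocrine pancreas markers tested. Of 5 B lymphoid and plasma cell markers, 0 passed limma's test, with 2 at an unadjusted p under 0.05. In MEKi against Vehicle, *Ascl2* (1.00) was the sole marker called, but whole lists lay to one side. Of all genes in that comparison, 1.98% were called, 54.6% were above 0 and 16.4% had an unadjusted p under 0.05. All 6 goblet cell markers were higher in MEKi (median 0.68, 3 at an unadjusted p under 0.05), with an average of 6.38 to 7.07 against 5.71 to 6.36 in Vehicle. All 5 Paneth cell markers tested were higher (median 0.80, 1 at an unadjusted p under 0.05), with an average of 6.77 to 7.57 against 5.21 to 6.91. The 5 stem cell (median 0.36) and 6 smooth muscle markers (0.68) were all higher as well, as were 4 of 5 T lymphoid markers (0.78, 3 at an unadjusted p under 0.05), while 5 of 6 proliferation markers (-0.20) and, with the signal on Vehicle replicate 2, 6 of 6 exocrine pancreas markers tested (-2.36) were lower. The part of these shifts in the changes of the enzyme genes was not tested.

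**Figure D5:**
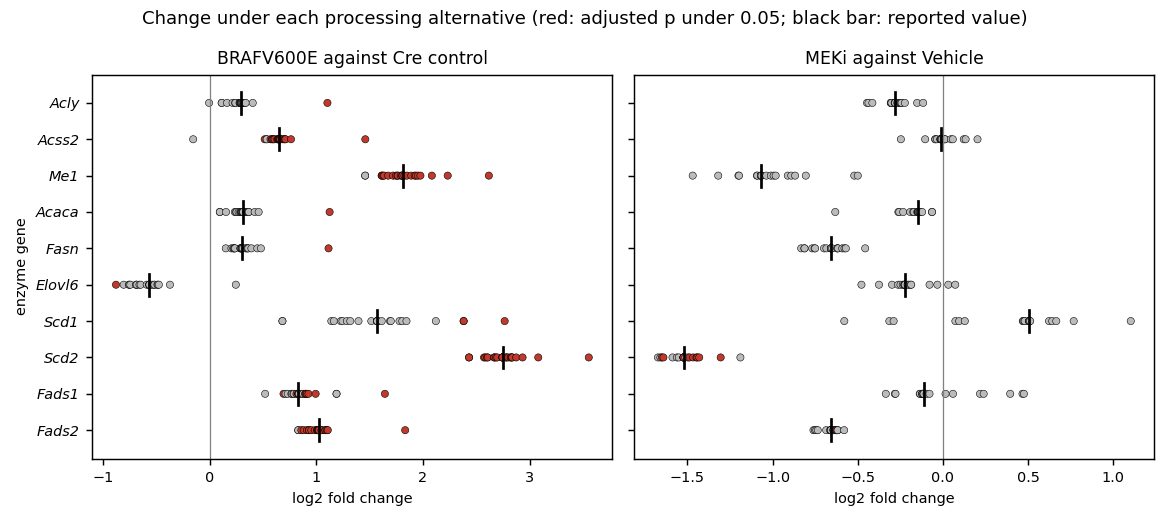
Log2 fold change of each enzyme gene (horizontal axis) under each processing alternative, 27 for BRAFV600E against Cre control on the left and 22 for MEKi against Vehicle on the right. Each point is an alternative, red where the adjusted p was under 0.05, and the black bar is the reported value. Scd2 was called in all 27 on the left, between 2.43 and 3.55, and in 14 of 22 on the right, between -1.67 and -1.19.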

How the data were processed

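Gene expression was measured on SurePrint G3 Mouse 8x60K arrays, 1 per mouse. Per the file headers, the authors extracted them with Agilent Feature Extraction 10.5.1.1, which subtracted background and wrote a processed intensity per spot on a linear scale, not normalized between arrays, and marks (0 or 1, another kind of value) for spots well above background. The deposited matrix held the same intensity (100% of spots within 0.5%). Control and outlier spots were left out, and log2 intensity minus each array's 75th percentile was used. Probes were named through a RefSeq table (GRCm38.p6, names only): 34023 by accession, 9993 by symbol, 318 by synonym, and 12271 unnamed probes were not tested. Probe positions are those of the files (mm9, numbered from 1). Exon, intron and UTR were not analysed here.

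Testing needed a probe well above background on 6 or more of the 12 arrays, or 4 or more of the 8. The arrays of each comparison were fitted separately, with no covariate, in limma 3.58.1 (R 4.3.3, functions lmFit and eBayes). Calls were made two-sided at an adjusted p under 0.05, by Benjamini-Hochberg over all genes. Groups came from the labels other than the repeated treatment text. The named genes were all 10 enzymes, the regulators *Srebf1*, *Srebf2*, *Mlxipl*, *Nr1h3* and *Nr1h2*, every called gene of 5 pathway lists (at most 6 per list and comparison, other than the regulators just given and *Mbtps2* and *Scap*) and up to 4 called genes of each of 12 marker lists. Named outside that rule were *Thrsp*, *Lct*, *Vil1*, *Epcam*, *Smoc2*, *Cd14*, *Cd4* and the adipocyte markers other than *Plin1*. The enzymes and lists were chosen with earlier results of these data known. The number of arrays limits the precision, and the fit was tested on simulated data. Alternatives changed the background correction, scaling, filter, probe rule, variance model, slide, sex term and single arrays.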

Additional observations from a re-analysis of the deposited data

Results flagged for a closer look

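Over the 10 enzyme genes and 4 groups, 40 sets of arrays were examined for a highest or lowest array that stood far from the rest, and 2 had one. Chance flags about 1 set in 20. *Acaca* was 2.03 on Cre control replicate 4, and its next value in that group was 1.42. This is the array with the highest adipocyte marker signal. *Scd1* was -2.15 on Vehicle replicate 2, and its next value was -0.56. This is the array with the exocrine pancreas signal. The part of these signals in either value was not tested.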

How the results depend on the processing

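No paired analysis was possible because the labels carry no replicate numbers, and those used here only name the arrays. *Scd2* in BRAFV600E tissue was called under all 27 alternatives, *Fads2* and *Me1* under 25, *Acss2* under 24 and *Fads1* under 10. Against the 5 enzyme genes called there, 9 were called without scaling between arrays, 3 with the mean over probes, 1 with slide as a block and 1 within slide 1, and leaving out 1 array gave 4 to 7. Against 2372 genes called in all, the count was 4646 with normexp, 9337 without scaling, 3591 with every probe tested, 3719 with array weights, 1534 with slide as a block, 734 within slide 1, 1499 with adipocyte markers as a covariate (added after seeing the data) and 1444 (without Cre control replicate 3) to 2888 with 1 array left out, 1515 without Cre control replicate 2.

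Against the 1 enzyme gene called in MEKi, 2 were called with normexp, with normexp and quantile normalization, with array weights and with a trended variance, and 0 without scaling, with Y-linked signal or adipocyte markers as a covariate or on the arrays with high Y-linked signal alone (the latter 2 added after seeing the data), and leaving out 1 array gave 0 to 1. Against 380 genes called in all, the count was 72 without scaling, 234 without a filter, 1110 with array weights, 53 with the Y-linked covariate, 4 with the adipocyte covariate, 78 on high Y-linked arrays and 83 to 371 with 1 array left out: 83, 87 and 143 without MEKi replicates 1, 3 and 4, and 190, 116 and 115 without Vehicle replicates 1, 3 and 4.

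Signs turned only for genes that had not been called, except *Acss2* in BRAFV600E tissue (-0.15 with the mean over probes). There *Acly* became -0.0044 with the mean over probes and *Elovl6* 0.25 without scaling. In MEKi, *Acss2* became 0.011 with quantile normalization, 0.13 with array weights, 0.058 and 0.0465 with the Y-linked covariate and on high Y-linked arrays, 0.20 with the adipocyte covariate, and -0.10 to 0.12 with 1 array left out (positive without MEKi replicate 2, Vehicle replicate 2 or Vehicle replicate 4). *Scd1* became -0.29 with array weights, -0.58 with the adipocyte covariate and -0.31 to 1.1 with 1 array left out (negative without MEKi replicate 2), and *Elovl6* 0.072 with array weights and -0.48 to 0.032 with 1 array left out (positive without Vehicle replicate 2). *Fads1* became 0.015 with the mean over probes, 0.22 with array weights, 0.48 and 0.47 with the Y-linked covariate and on high Y-linked arrays, 0.40 with the adipocyte covariate, and -0.34 to 0.24 with 1 array left out (positive without MEKi replicate 2 or Vehicle replicate 2). Within 1 group, signal over background did not limit these genes, since all 10 were well above background on every array. The cause of these differences was not tested.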
